A study of Mus musculus with 6 samples.

Results

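The nuclear genes of respiratory complexes II to V were followed in whole kidneys of mice with and without induced deletion of Pkd1. Members were chosen by gene symbol: Sdha to Sdhd, Cyc1, and every protein-coding gene whose older or newer symbol begins with Uqcr, Cox4, Cox5, Cox6, Cox7, Cox8 or Atp5. The rule took 52 of 56923 counted gene identifiers, which carry 51 symbols. They were 4 genes of complex II, 9 of complex III, 18 of complex IV and 21 of complex V. Names that fit the rule but belong to processed pseudogenes, such as Cox6c2 and Uqcrh-ps1, were left out. Emc8 was left out as well, because its older symbol Cox4nb names it as a neighbour of Cox4i1 and not as a subunit.

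RNA sequencing of poly-A RNA measured transcripts in 6 snap-frozen kidneys, each taken whole from male mice and split evenly into 2 groups of 3. Control mice were Pkd1flox/flox.Tet-O-Cre and lacked Pax8rtTA. Pkd1 KO mice were Pkd1flox/flox.Pax8rtTA.Tet-O-Cre, in which the Pax8 promoter drives the doxycycline-dependent activator in kidney tubule cells, so other cells of the kidney keep their floxed alleles. For 14 days, from postnatal day 28 until day 42, the drinking water of both groups held 2 mg/ml doxycycline and 5% sucrose, and kidneys were collected at 10 weeks of age. Pkd1 encodes polycystin-1, the protein most often altered in autosomal dominant polycystic kidney disease. By their table names the 3 controls were sequenced under 1 project and the 3 Pkd1 KO kidneys under another, and genotype cannot be told apart from project.

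Complexes III and IV pass electrons from ubiquinol through cytochrome c to oxygen and pump protons across the inner mitochondrial membrane. Complex II feeds electrons from succinate into the same chain without pumping, and complex V, the ATP synthase, lets the protons return and makes ATP. All subunits of complex II are encoded in the nucleus, whereas complexes III, IV and V also hold subunits encoded by mitochondrial DNA. Kidney tubules, the proximal tubule above all, depend on this machinery to power the reabsorption of salt, glucose and amino acids.

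Promoters of such genes are known for sites of nuclear respiratory factor 1 (NRF1) and of ETS factors such as GABPA, also called NRF2. A few are shown, all of genes that rose or fell without offsets and all with letters of such a site. They are not those of the members with the largest changes. The RefSeq table (GRCm38.p6, 250 bases before and 50 after the start) held promoters of 39 members among 27025 in all. An NRF1 motif, the letters GCGCA and GCGC with 1 base of any kind between them, was found on either strand in 10 of the 39, or 25.6%, against 4.78% of all promoters. The ETS letters CCGGAAG were found on either strand in 12 of the 39, or 30.8%, against 9.12% of all promoters. Capitals mark these letters in the stretches below, read 5′ to 3′ along the gene, each being the part of the 250 bases before the start that no annotated gene covers.
Sdha, chr13:74350281-74350308, minus strand: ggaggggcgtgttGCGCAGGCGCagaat
Sdhd, chr9:50603850-50603909, minus strand: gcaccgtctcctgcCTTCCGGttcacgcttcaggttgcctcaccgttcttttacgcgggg
Uqcrh, chr4:116075072-116075268, minus strand: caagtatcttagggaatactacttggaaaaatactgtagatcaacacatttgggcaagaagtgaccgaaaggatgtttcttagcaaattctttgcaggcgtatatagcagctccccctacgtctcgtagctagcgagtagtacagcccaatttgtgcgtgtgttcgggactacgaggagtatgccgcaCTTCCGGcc
Atp5e, chr2:174464106-174464351, minus strand: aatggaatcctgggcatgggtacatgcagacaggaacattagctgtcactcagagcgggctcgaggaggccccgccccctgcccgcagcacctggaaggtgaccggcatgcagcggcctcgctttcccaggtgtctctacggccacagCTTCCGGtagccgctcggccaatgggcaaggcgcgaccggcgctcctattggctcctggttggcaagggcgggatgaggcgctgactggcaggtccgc
Atp5h, chr11:115419963-115420127, minus strand: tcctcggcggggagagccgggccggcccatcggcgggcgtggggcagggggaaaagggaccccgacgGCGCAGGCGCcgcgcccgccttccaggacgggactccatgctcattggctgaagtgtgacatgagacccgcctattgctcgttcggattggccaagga
The 28 bases of Sdha, which fell, and the 165 bases of Atp5h, which rose without offsets, each show 1 NRF1 motif, and the stretches of Sdhd, Uqcrh and Atp5e, which rose without offsets, each show 1 ETS motif. Counted over the whole promoter, which reaches past these stretches, Sdha held 3 NRF1 motifs and no ETS motif, and Uqcrh and Atp5e held 1 ETS motif and no NRF1 motif. Sdhd and Atp5h each held 1 of both kinds. NRF1 letters were present in 6 of the 25 members with a promoter that were called higher without offsets and in 4 of the 13 other tested ones. ETS letters were present in 9 of the 25 and in 3 of the 13. Among members with a promoter and larger changes than those shown, Usmg5 held ETS letters, whereas Cox7b, Cox7a1 and Cox8b held neither kind. Cox7a2, Uqcr10, Cox6b1, Atpif1 and Atp5f1 are not shown, but without offsets they rose by 0.91 to 1.10, more than Atp5h at 0.87. Cox6b1 held ETS letters and Atpif1 held NRF1 letters, whereas Cox7a2, Uqcr10 and Atp5f1 held neither kind. A match is a run of letters and not a measured binding site.

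Gene counts per library were between 45020173 and 62983791, and 49 of the 52 members had enough counts for the test. On principal component 1, with 70.4% of the variance, the groups were separate, but the controls were spread along it at -58.1, -92.7 and -24.2 while the Pkd1 KO libraries lay between 52.4 and 66.4. As a check of the labels, Pkd1 was at 30.0, 46.4 and 23.6 CPM (counts scaled to the size of the library) in the controls and 8.77, 9 and 10.0 CPM in the Pkd1 KO kidneys. The groups did not overlap, and the log2 fold change, here always Pkd1 KO minus control, was -1.85 ± 0.24 (SE, n = 3 in each group; edgeR adjusted p = 0.00234). Fold changes in these libraries followed gene length and GC content over all genes, with a Spearman rho of -0.39 for each over 17785 genes. Members and counts over gene lists are therefore given from 2 edgeR fits, 1 without offsets and 1 with an offset for GC content and exon length, called the offset fit here. A further fit, chosen after seeing the data, took the length and GC content of the principal transcript for the offset. Pkd1 was at -0.49 ± 0.12 (adjusted p = 0.0135) in the offset fit and at -0.33 (adjusted p = 0.0918) on principal transcripts, where the targeted gene was no longer called.

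Members of complexes II to V mostly rose in the fit without offsets, while Sdha, Atp5a1 and Uqcrc1 fell. Usmg5, Cox7b, Cox7a1, Atp5e and Cox4i1 were called higher, and Sdha lower, in all 3 fits. Without offsets 31 of the 49 tested members were called higher and 3 lower at an edgeR adjusted p under 0.05, against 22.7% higher and 24.2% lower, 46.9% in all, among the 18273 genes tested. The median log2 fold change of the members was 0.72, and that of all genes tested was 0.026. With the offset 13 members were called higher and 3 lower, against 16.7% higher and 18.1% lower, 34.8% in all, among 17785 genes, and the median was 0.29 beside -0.014 over all genes. In the offset fit 11 of the 31 members called higher were called higher again, and 1 of the 3 called lower, Sdha, was called lower again. Atp5s was called in both fits with opposite signs. On principal transcripts 7 members were called higher and 7 lower, against 16.3% higher and 17.7% lower among 17785 genes, and 5 of the 13 called higher in the offset fit were called higher again. Under upper-quartile scaling the median of all genes moved by 0.16 to 0.19, 60.5% of all calls were higher in place of 48.4%, and 33 members were called higher and 1 lower.

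In 43 of the 49 tested members control 3 was the highest of the controls, and in 46 control 2 was the lowest, against 7233 and 7334 of the 18273 genes tested. The same held in 35 and 36 of the 37 nuclear subunits of complex I, so this order was not particular to complexes II to V. All 3 Pkd1 KO kidneys lay above all controls in 34 members and below them in 4, while 11 overlapped, against 31.2% above and 30.0% below, 61.2% in all, among the genes tested. These genes made up 2.08%, 1.66% and 2.44% of gene counts in the controls and 2.55%, 2.59% and 2.56% of those in the Pkd1 KO libraries. The order of the controls runs through all 4 complexes in the plot of member levels by library.

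**Figure D1:**
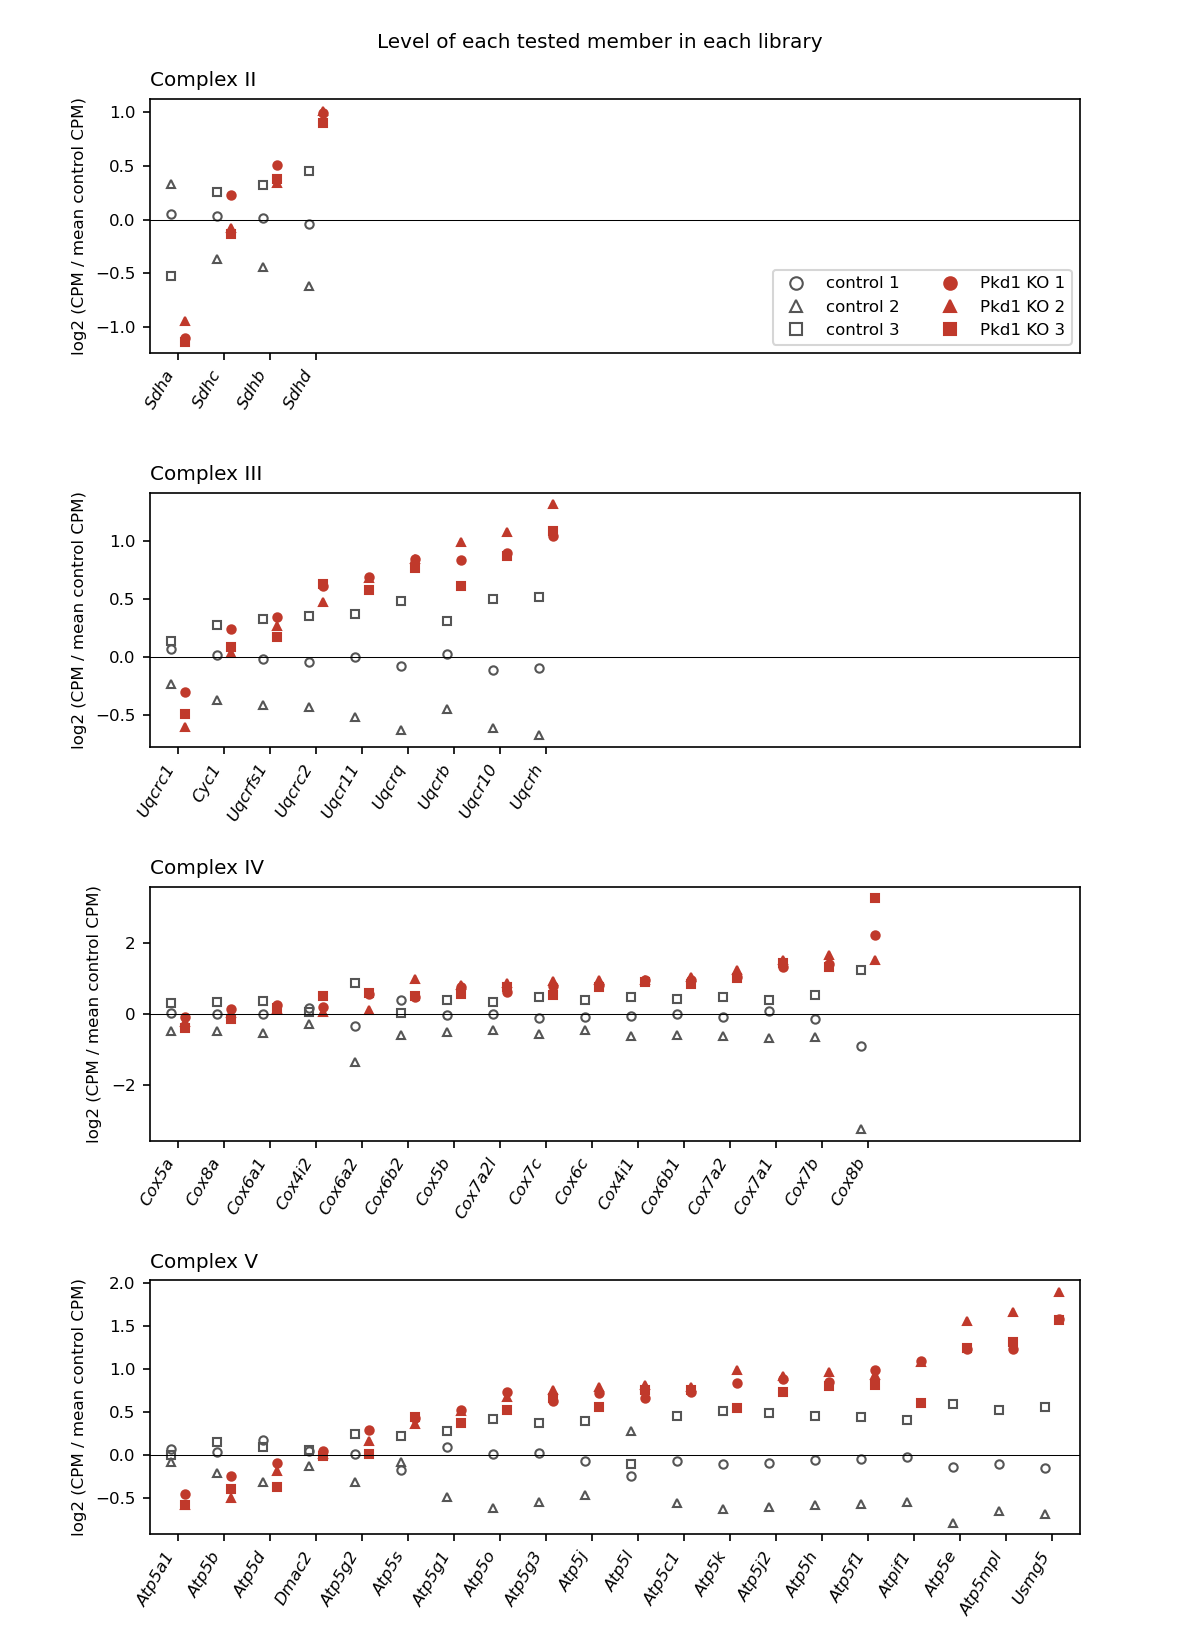
Level of each of the 49 tested members in each of the 6 libraries, as the log2 of its CPM over the mean control CPM, by complex, with open grey symbols for controls and filled red symbols for Pkd1 KO. The 3 Pkd1 KO libraries sit close together and above every control in 34 members, and control 2 is the lowest control in 46 of 49.

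Complex II was split between its subunits, with Sdha lower and Sdhd higher. Sdha, the flavoprotein that oxidizes succinate, stood at 803, 974 and 536 CPM in the controls and at 359, 402 and 351 CPM in the Pkd1 KO kidneys. Every Pkd1 KO kidney was below every control, and control 3, the lowest of the controls, was the nearest. Its log2 fold change was -1.06 ± 0.22 (SE, n = 3 in each group; edgeR adjusted p = 0.00575), and with the offset it was -1.10 ± 0.22 (adjusted p = 0.00584). Sdhd, a membrane anchor that binds ubiquinone, moved the other way, from 369.5, 247 and 519.8 CPM to 752, 766 and 707 CPM. Its groups did not overlap either, and its log2 fold change was 0.97 ± 0.25 (SE, n = 3 in each group; edgeR adjusted p = 0.0128). With the offset the Sdhd change was 0.38 ± 0.16 (adjusted p = 0.0959), no longer past the threshold, and on principal transcripts it was 0.46 (adjusted p = 0.0491).

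Sdhb, the iron-sulfur subunit that takes electrons from Sdha, was at 513, 372 and 632 CPM in the controls and 722, 641 and 657 CPM in the Pkd1 KO kidneys. All Pkd1 KO values exceeded all control values, but the log2 fold change of 0.41 ± 0.20 (SE, n = 3 in each group; edgeR adjusted p = 0.122) did not pass the test. Sdhc, the other membrane anchor, overlapped between groups at 429, 324 and 500.1 CPM and 489, 397 and 381 CPM, with a log2 fold change of 0.0149 ± 0.19 (adjusted p = 0.955). Per transcript length, Sdhb was the most abundant of the 4 genes in both groups, at 443 ± 114 RPKM (CPM per kilobase of the principal transcript; SD, n = 3) in the controls and 589.6 ± 37.3 RPKM in the Pkd1 KO kidneys. Sdha was at 266 ± 76.1 RPKM and 128 ± 9.35 RPKM. Sdha held its call in all 6 fits that left out 1 library, whereas Sdhd lost it without control 1 and without Pkd1 KO 2, with adjusted p-values of 0.0538 and 0.0513.

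In complex III the 5 small subunits rose together without offsets, while the subunits that carry electrons did not pass the test. Among all genes tested, 22.7% were called higher without offsets and 16.7% with the offset. Uqcrh, the hinge protein that helps cytochrome c dock, was at 263, 176 and 402 CPM in the controls and 578, 699.8 and 597 CPM in the Pkd1 KO kidneys. The groups were apart, with a log2 fold change of 1.16 ± 0.27 (SE, n = 3 in each group; edgeR adjusted p = 0.00941), which was held in all 6 fits that left out 1 library. Uqcr10, Uqcrb, Uqcrq and Uqcr11, short proteins around the core, had log2 fold changes of 0.96, 0.83, 0.82 and 0.65, with adjusted p-values between 0.0115 and 0.0329. In all 5 small subunits the lowest Pkd1 KO kidney was above the highest control. With the offset none of the 5 was called, and Uqcrb changed sign, at -0.10 ± 0.14 (adjusted p = 0.603).

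The 2 large core proteins went in opposite directions. Uqcrc1 was at 480.1, 389.5 and 504 CPM in the controls and 371, 303 and 326 CPM in the Pkd1 KO kidneys, which were all below the lowest control, and fell with a log2 fold change of -0.46 ± 0.16 (SE, n = 3 in each group; edgeR adjusted p = 0.0445). Uqcrc2 was at 479, 368 and 633 CPM in the controls and rose to 757, 688 and 766 CPM, all above the controls, with a log2 fold change of 0.58 ± 0.21 (SE, n = 3 in each group; edgeR adjusted p = 0.0452). Neither was called with the offset, where Uqcrc1 was at -0.17 ± 0.15 (adjusted p = 0.405) and Uqcrc2 at 0.0299 ± 0.15 (adjusted p = 0.889).

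Cyc1, the cytochrome c1 heme protein, was at 538, 409 and 641 CPM and 629, 545 and 562 CPM. Uqcrfs1, the Rieske iron-sulfur protein, was at 539, 409 and 685 CPM and 695, 656 and 616 CPM. Both overlapped between groups, with log2 fold changes of 0.13 ± 0.19 (adjusted p = 0.596) and 0.27 ± 0.20 (adjusted p = 0.293). The offset separated the pair, raising Cyc1 to 0.54 ± 0.18 (adjusted p = 0.0388), the only complex III gene called in that fit, and putting Uqcrfs1 at -0.34 ± 0.14 (adjusted p = 0.0803). On principal transcripts no complex III gene was called, and Cyc1 was at 0.15 (adjusted p = 0.431). Of the 7 calls in complex III without offsets, 6 were lost when Pkd1 KO 2 was left out, 5 without control 1, 4 without Pkd1 KO 1 or Pkd1 KO 3 and 1, Uqcrc2 at an adjusted p of 0.0719, without control 2. The most abundant complex III gene per length was Uqcrq, at 854 ± 326 RPKM in the controls and 1510.4 ± 45.8 RPKM in the Pkd1 KO kidneys.

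Complex IV had no member called lower without offsets. Of its 10 subunits that are made in most tissues, 7 were called higher in that fit and 3 did not pass the test. With the offset 4 of the 10 were called higher and 1 lower. The shares of all genes were 22.7% higher without offsets, and 16.7% higher and 18.1% lower with the offset. Cox7b, a short membrane subunit, had the largest change of the 10, from 240.0, 169 and 385 CPM in the controls to 698, 833 and 655 CPM in the Pkd1 KO kidneys. The lowest Pkd1 KO value was well above the highest control value, and the log2 fold change was 1.46 ± 0.28 (SE, n = 3 in each group; edgeR adjusted p = 0.00442). Cox7a2, which lies in the same membrane layer, rose from 278, 191 and 414 CPM to 607, 693 and 592 CPM with a log2 fold change of 1.10 ± 0.26 (SE, n = 3 in each group; edgeR adjusted p = 0.00934). Both stayed called with the offset, at 0.61 ± 0.18 (adjusted p = 0.0263) and 0.53 ± 0.17 (adjusted p = 0.0347), but on principal transcripts only Cox7b did, with Cox7a2 at 0.41 (adjusted p = 0.0525).

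Cox4i1, the subunit through which ATP inhibits the enzyme, was the member of complex IV least moved by the offset. It stood at 641, 434 and 922 CPM in the controls and 1303, 1303 and 1234 CPM in the Pkd1 KO kidneys, with no overlap. Its log2 fold change was 0.94 ± 0.25 (adjusted p = 0.0154) without offsets and 0.94 ± 0.20 (adjusted p = 0.00834) with the offset. Cox6c rose in both fits too, by 0.85 and 0.63 on the log2 scale, but was at -0.0439 (adjusted p = 0.796) on principal transcripts. Cox6b1, Cox7c and Cox5b, at 0.96, 0.76 and 0.72, were called only without offsets, and Cox7c was at -0.19 with the offset.

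Cox6a1, Cox8a and Cox5a did not pass the test without offsets. Cox6a1 was at 708, 491 and 909 CPM and 839.6, 783 and 794 CPM and Cox8a at 677, 484 and 847 CPM and 745, 683 and 609 CPM, and both overlapped between groups. On principal transcripts Cox8a was called lower, at -0.46 (adjusted p = 0.0232). These were the most abundant complex IV genes per length in the controls, at 1230.2 ± 366 RPKM and 1217 ± 330.2 RPKM. In the Pkd1 KO kidneys Cox4i1 was above both, at 1718 ± 53.4 RPKM, and Cox6c was at 1542 ± 106 RPKM.

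Cox5a, which binds the thyroid hormone T2, had a call that differed between fits. It was at 184, 130.0 and 225 CPM and 170.3, 155 and 138 CPM, with a log2 fold change of -0.22 ± 0.20 (adjusted p = 0.402). With the offset it was called lower, at -1.02 ± 0.15 (adjusted p = 0.00239), and on principal transcripts too, at -1.04 (adjusted p = 0.00165). Reads that overlap genes on both strands are dropped from the counts used here, and the 2 strand columns of Cox5a summed to 2.14 times its count. Those summed columns, without strand information, also take in reads of the overlapping gene. On them the change was 0.11 (edgeR adjusted p = 0.667) in a fit without offsets. The 10 calls in complex IV without offsets were reduced by 6 without control 1 or without Pkd1 KO 2, by 4 without Pkd1 KO 3 and by 3 without Pkd1 KO 1.

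Several complex IV genes come in a form made in most tissues and a form known from muscle, lung or testis. Of the 5 tissue forms with enough counts, Cox7a1 and Cox8b were called higher without offsets, against 22.7% of all genes tested. Cox4i2, Cox6a2 and Cox6b2 did not pass the test. Cox7a1, the heart and skeletal muscle form that is also made in brown fat, went from 16.1, 9.53 and 20.0 CPM to 38.4, 43.7 and 41.0 CPM with no overlap, a log2 fold change of 1.43 ± 0.25 (SE, n = 3 in each group; edgeR adjusted p = 0.00328). It stayed called with the offset, at 0.82 ± 0.15 (adjusted p = 0.00508), and in all 6 fits that left out 1 library. Cox8b, the other muscle and brown fat form, had only 9, 2 and 34 counts in the controls and 75, 57 and 196 counts in the Pkd1 KO libraries. Its log2 fold change was 2.57 ± 0.80 (SE, n = 3 in each group; edgeR adjusted p = 0.027) and 1.97 ± 0.71 (adjusted p = 0.0556) with the offset, and without control 3 it was 4.11. It was called in 3 of the 6 fits that left out 1 library.

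Summed levels of fat markers were higher in the Pkd1 KO libraries too. The summed CPM of the 7 brown and white fat markers ran from 41.7 to 101 in the controls and from 167 to 258 in the Pkd1 KO libraries. Of the 6 tested, 3 were called higher without offsets and 1 with the offset, or 50% and 16.7%, against 22.7% and 16.7% of all genes. Single markers were less separate than their sum, since 5 of the 6 overlapped between groups. Ucp1, which defines brown fat, was at 1.03, 0 and 2.33 CPM in the controls and 2.83, 1.92 and 14.7 CPM in the Pkd1 KO libraries, and Cidea was at 0.427, 0.0519 and 1.59 CPM and 2.14, 0.869 and 5.1 CPM. Pkd1 KO 3 was the highest library for Ucp1, Cidea and Cox8b, but not for Cox7a1, whose 3 Pkd1 KO values lay within 38.4 to 43.7 CPM. The summed CPM of 9 striated muscle markers stayed between 0.869 and 1.31 in all 6 libraries, and 2 of the 9 were at 0 throughout. The part of fat RNA in the change of Cox7a1 and Cox8b was not tested.

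Ratios between the forms were computed per transcript length in each library. Cox7a1 was 9.73%, 8.35% and 8.11% of Cox7a2 in the controls and 10.6%, 10.6% and 11.6% of it in the Pkd1 KO kidneys. The groups did not overlap, and the exact two-sided permutation test gave p = 0.1, the smallest that 3 against 3 samples can give, and 0.14 after adjustment over the 7 ratios compared. Cox8b was 0.0395%, 0.0109% and 0.138% of Cox8a in the controls and 0.311%, 0.209% and 0.776% of it in the Pkd1 KO kidneys, with the same exact p of 0.1. Cox4i2, the lung form, was at most 0.118% of Cox4i1, and Cox6a2, the heart and muscle form, at most 0.22% of Cox6a1, and both ratios overlapped between groups.

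Cox6b2, the testis form of Cox6b1, was at 6.23, 3.16 and 4.82 CPM and 6.65, 9.33 and 6.74 CPM, apart but not past the test at 0.68 ± 0.26 (adjusted p = 0.0618). The testis forms Cox7b2 and Cox8c were too low to test. Cox7b2 had 0, 2 and 0 counts in the controls and 0, 1 and 1 counts in the Pkd1 KO libraries, and Cox8c had 5 counts in Pkd1 KO 2 and none elsewhere. Cox7a2l, which links complexes III and IV into supercomplexes, was at 109.7, 80.0 and 139 CPM and 169, 199.8 and 187 CPM and rose by 0.76 ± 0.20 (adjusted p = 0.0156) without offsets. With the offset it did not pass, at 0.24 ± 0.13 (adjusted p = 0.182).

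**Figure D2:**
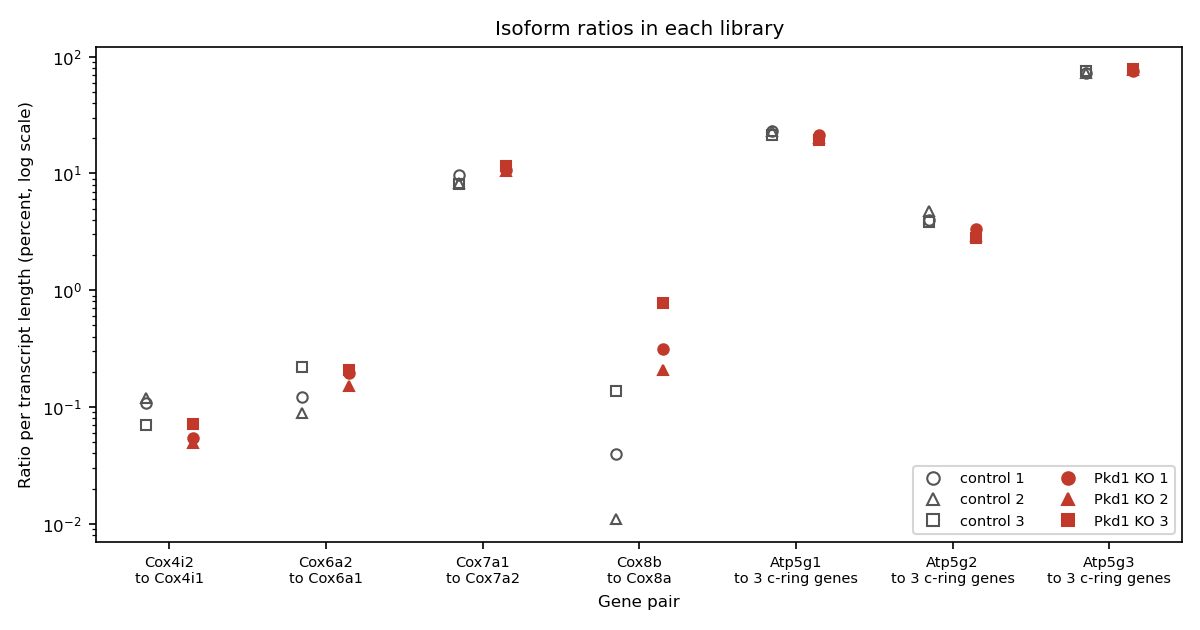
Ratio of each tissue form to its common form, and of each c-ring gene to the sum of the 3, per transcript length in percent on a log scale, with 1 symbol per library. Cox7a1 and Cox8b lie above all controls in the Pkd1 KO kidneys, whereas Cox4i2 and Cox6a2 overlap.

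In complex V the accessory membrane subunits and the peripheral stalk rose without offsets, whereas Atp5a1 of the catalytic head fell. All 5 accessory membrane subunits were called higher without offsets and 3 with the offset, against 22.7% and 16.7% of all genes tested. Usmg5, also called DAPIT, which helps ATP synthase form dimers, had the largest change of all members after the sparse Cox8b, from 138, 95.4 and 225 CPM to 458, 568 and 452 CPM. The lowest Pkd1 KO value was far above the highest control value, with a log2 fold change of 1.69 ± 0.29 (SE, n = 3 in each group; edgeR adjusted p = 0.00326). Atp5mpl, a proteolipid, rose from 144, 98.8 and 222 CPM to 363, 491 and 385 CPM, by 1.41 ± 0.28 (adjusted p = 0.00485). Both stayed called with the offset, at 1.04 ± 0.20 (adjusted p = 0.00524) and 1.05 ± 0.20 (adjusted p = 0.00531), and in all 6 fits that left out 1 library, but Atp5mpl was at 0.39 (adjusted p = 0.0815) on principal transcripts.

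Atp5j2, Atp5k and Atp5l, the f, e and g subunits, had log2 fold changes of 0.85, 0.80 and 0.75, and of these only Atp5j2 was called with the offset, at 0.80 ± 0.22 (adjusted p = 0.0197), and on principal transcripts it was at 0.24 (adjusted p = 0.242). The 2 strand columns of Atp5l summed to 5.96 times the count used. In libraries without strand information these columns also take in reads of overlapping genes, so the added reads cannot be assigned. On the summed columns the change of Atp5l was 1.07 (edgeR adjusted p = 0.00342). The 4 tested subunits of the peripheral stalk, which holds the head still, were also called higher without offsets. Of all genes tested, 22.7% were called higher in that fit and 16.7% with the offset. Atp5f1 went from 569, 396 and 799.7 CPM to 1169.7, 1125 and 1032 CPM, a log2 fold change of 0.91 ± 0.24 (adjusted p = 0.0148). Atp5h, Atp5j and Atp5o had changes of 0.87, 0.69 and 0.65, and with the offset Atp5j alone of the 4 was called, at 0.63 ± 0.18 (adjusted p = 0.0244). On principal transcripts Atp5f1 alone was called, at 0.56 (adjusted p = 0.033), and Atp5j was at 0.28 (adjusted p = 0.13). The strand columns of Atp5o summed to 3.13 times its count, and a second identifier with the same symbol had no counts in any library.

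The F1 head and its central stalk were split. Atp5a1, the alpha subunit, stood at 2491, 2255 and 2388 CPM in the controls and 1746, 1589 and 1593 CPM in the Pkd1 KO kidneys. The groups did not overlap, and the log2 fold change was -0.53 ± 0.15 (SE, n = 3 in each group; edgeR adjusted p = 0.0203). Atp5b, the beta subunit that carries the catalytic sites, was the most abundant member per length in the controls, at 2041 ± 258 RPKM, and stood at 1577 ± 146 RPKM in the Pkd1 KO kidneys. It stood at 4007, 3374 and 4348 CPM in the controls and 3318, 2763 and 2982 CPM in the Pkd1 KO kidneys, lower without overlap, yet the change of -0.37 ± 0.18 (adjusted p = 0.114) did not pass the test. Neither was called with the offset, at -0.31 ± 0.14 (adjusted p = 0.101) and -0.17 ± 0.16 (adjusted p = 0.435). On principal transcripts both were called lower, at -0.51 (adjusted p = 0.0134) and -0.48 (adjusted p = 0.0264).

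Within the central stalk, which turns inside the head, Atp5c1, the gamma subunit, rose from 567, 406 and 813 CPM to 989, 1032 and 1006 CPM, by 0.76 ± 0.24 (adjusted p = 0.028). Atp5e, the small epsilon subunit, rose from 263, 168 and 439 CPM to 681, 856 and 687 CPM, by 1.35 ± 0.31 (adjusted p = 0.00848), and stayed called with the offset at 0.94 ± 0.23 (adjusted p = 0.0128). Atp5d, the delta subunit, overlapped at 561, 399 and 532 CPM and 468, 439 and 385 CPM, with a change of -0.21 ± 0.18 (adjusted p = 0.35). Parts of 1 machine had log2 fold changes from -0.53 to 1.69 in the same 6 libraries.

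The c subunit of the proton-driven ring is encoded by 3 genes, whose mature proteins are identical. Atp5g3 was called higher, from 916, 614 and 1165 CPM to 1389, 1514 and 1418 CPM, with a change of 0.68 ± 0.23 (adjusted p = 0.0367). Atp5g1, at 245, 164 and 279 CPM and 330.3, 328 and 297 CPM, was higher without overlap but did not pass, at 0.47 ± 0.20 (adjusted p = 0.0812). Atp5g2, at 31.3, 25.1 and 36.9 CPM and 38.2, 35.0 and 31.4 CPM, overlapped, at 0.16 ± 0.17 (adjusted p = 0.454). Per transcript length Atp5g3 made up 72.7%, 72.1% and 74.7% of the 3 genes in the controls and 75.2%, 77.1% and 77.7% of them in the Pkd1 KO kidneys, which lay apart with an exact permutation p of 0.1. The shares of Atp5g1 and Atp5g2 were lower without overlap, at 21.5% to 23.3% against 19.5% to 21.4% and at 3.84% to 4.77% against 2.78% to 3.35%. All 3 differences changed sign with the offset, in which Atp5g2 alone of the 3 genes was called, higher at 0.49 ± 0.15 (adjusted p = 0.0287). On principal transcripts Atp5g2 was called in the opposite direction, lower at -0.52 (adjusted p = 0.00636), so its direction depended on the gene model used.

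Atpif1, the inhibitor that stops ATP synthase from running backwards, rose from 63.6, 44.4 and 86.0 CPM to 137, 137 and 98.7 CPM, by 0.94 ± 0.24 (adjusted p = 0.0131) and by 0.69 ± 0.18 (adjusted p = 0.0177) with the offset, and was at 0.20 (adjusted p = 0.299) on principal transcripts. Its 2 strand columns summed to 4.48 times its count, and the added reads cannot be assigned to Atpif1 or to an overlapping gene. Atp5s, a coupling factor, was at 17.1, 18.3 and 22.5 CPM and 26.1, 24.9 and 26.3 CPM, called higher at 0.42 ± 0.15 (adjusted p = 0.0451) without offsets and lower at -0.48 ± 0.12 (adjusted p = 0.0162) with the offset. Dmac2, an Atp5s-like protein that takes part in building complex I, was level at 69.5, 61.4 and 70.0 CPM and 69.3, 67.6 and 66.5 CPM, with a change of 0.0187 ± 0.13 (adjusted p = 0.914). Of the 15 calls in complex V without offsets, 12 were lost without control 1, 11 without Pkd1 KO 2, 10 without Pkd1 KO 1, 8 without Pkd1 KO 3 and 1 without control 2.

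**Figure D3:**
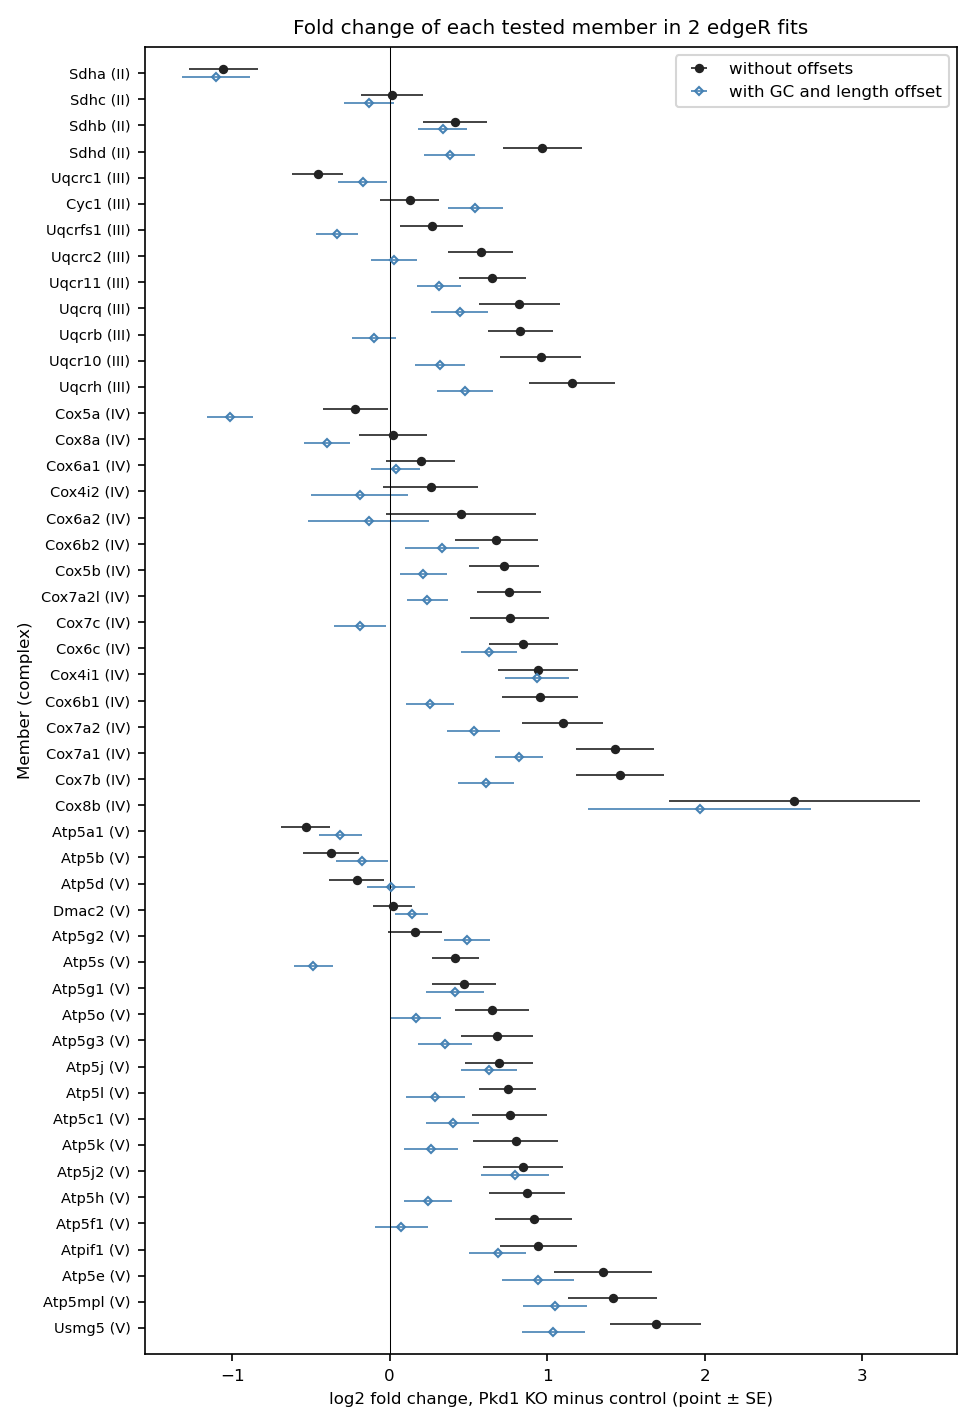
Log2 fold change of each tested member, Pkd1 KO minus control, with its SE, in the edgeR fit without offsets (black circles) and with the offset for GC content and exon length (blue diamonds), by complex. Usmg5, Atp5mpl, Atp5e and Cox4i1 stay well to the right in both fits and Sdha to the left, whereas Cox5a and Atp5s differ between the fits.

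The complexes were set side by side and not tested against each other, and the order of their medians differed between fits. Without offsets the median log2 fold changes were 0.21 over the 4 tested genes of complex II, 0.65 over the 9 of complex III, 0.76 over the 16 of complex IV and 0.72 over the 20 of complex V. With the offset they were 0.10, 0.31, 0.25 and 0.32, and on principal transcripts 0.12, 0.11, -0.00354 and 0.13. Complex II was thus lowest in the fits without offsets and with the offset, and complex IV on principal transcripts. By part, the median was 0.85 over the accessory membrane subunits of complex V, 0.83 over the small subunits of complex III and 0.78 over the peripheral stalk, but -0.21 over the F1 head and central stalk. The accessory membrane subunits were also the part of complex V with the highest median in the offset fit, at 0.80.

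Summed over subunits without tissue forms and associated factors, RPKM was higher in every Pkd1 KO kidney than in every control in all 4 complexes. Complex II stood at 1161, 964 and 1318 RPKM in the controls and 1521, 1448 and 1390.5 RPKM in the Pkd1 KO kidneys. Complex V stood at 9106, 6825 and 11480.5 RPKM and at 13569.9, 14604 and 12931 RPKM. As a share of the sum over all 4 complexes, complex II was lower in the Pkd1 KO kidneys, at 4.81%, 4.36% and 4.67% against 5.71%, 6.45% and 4.98%. Complex III was higher, at 20.0%, 19.8% and 20.3% against 18.5%, 18.1% and 19.5%, while the shares of complexes IV and V overlapped. These sums and shares were taken without the offset. By the median log2 CPM of the same subunits, complex II overlapped between groups without the offset, and complexes II and III overlapped with it. Complexes IV and V stayed above all controls in both.

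**Figure D4:**
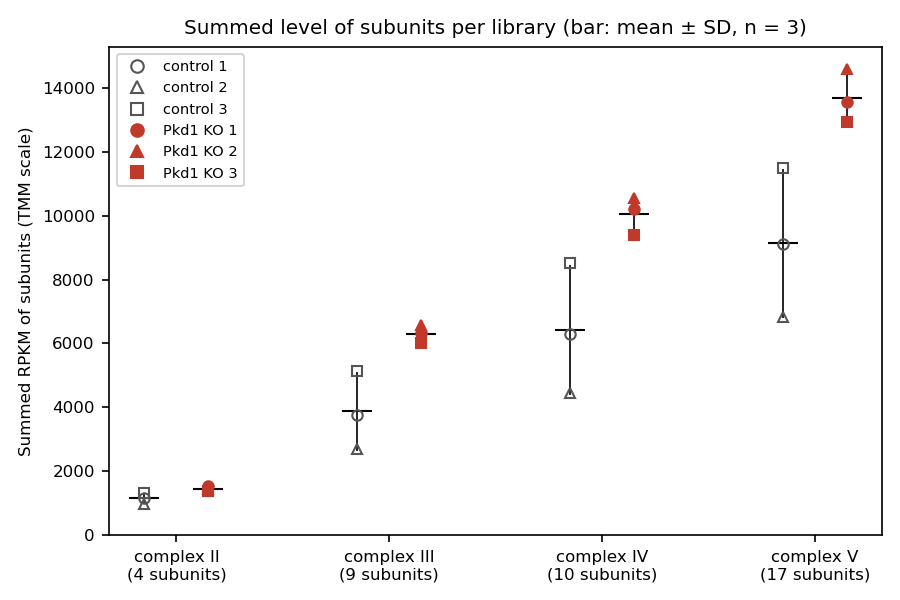
Summed RPKM of the subunits of each complex in each library, on a linear axis from 0, with bars for the mean and SD of each group (n = 3). In these sums, taken without the offset, each complex is higher in all 3 Pkd1 KO libraries than in the controls, and the controls spread more widely than the Pkd1 KO libraries.

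Fold changes of the members were lower for longer transcripts, as they were over all genes. Without offsets the Spearman rho between fold change and the length of the principal transcript was -0.58 over the 49 tested members and -0.44 over 17785 genes. In the offset fit, whose offset uses the longer union of exons, these were -0.52 and -0.13. With the length of the exon union the members' rho was -0.41 without offsets and -0.11 in the offset fit. These rho values are descriptions across genes of the same 6 libraries.

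Among the members that rose most, Usmg5, Cox7a1, Atp5mpl and Atp5e have principal transcripts of 362, 393, 366 and 421 bases, while that of Cox7b is longer, at 1001 bases. Those of Sdha, Atp5a1 and Uqcrc1 have 2900, 2471 and 1653 bases. When the offset was built on the principal transcript, the members' median was 0.10. Usmg5 was then at 0.68 (edgeR adjusted p = 0.0112), Cox7b at 0.57 (0.0255), Cox7a1 at 0.65 (0.00724), Atp5e at 0.62 (0.0243), Cox4i1 at 0.58 (0.0216) and Sdha at -1.05 (0.00596). The other 8 members called higher in the offset fit were not called higher: Cyc1, Cox6c, Cox7a2, Atp5j, Atp5j2, Atp5mpl and Atpif1 did not pass, and Atp5g2 was called lower.

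**Figure D5:**
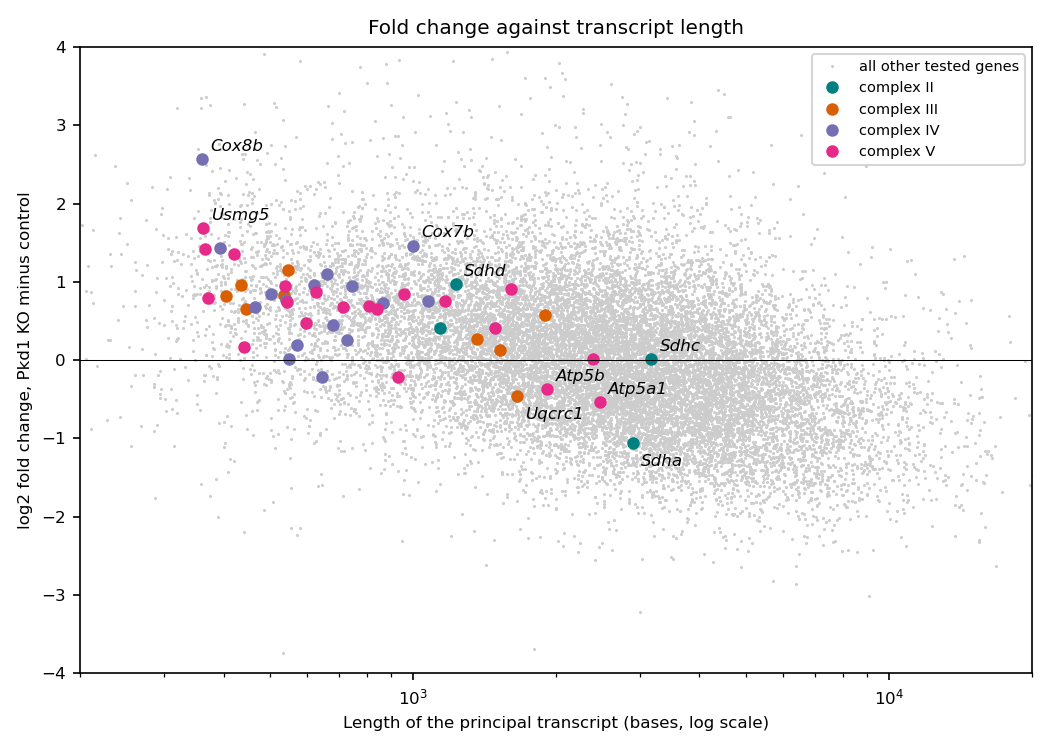
Log2 fold change without offsets against the length of the principal transcript in bases on a log axis, for the 49 tested members coloured by complex and for all other tested genes in grey. Short members such as Usmg5 lie high and the longer Sdha and Atp5a1 lie low, and the Spearman rho is -0.58 over the members and -0.44 over all genes with a length.

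Across all members, 8 of the 34 calls held in each of the 6 fits that left out 1 library: Sdha, Uqcrh, Cox7a1, Cox7a2, Cox7b, Atp5e, Usmg5 and Atp5mpl. Without control 1 or without Pkd1 KO 2, 24 calls were lost, at adjusted p-values up to 0.189 and 0.174. Without Pkd1 KO 1 or Pkd1 KO 3, 17 and 16 were lost, and without control 2, 2 were lost, Uqcrc2 and Atp5s. Leaving out control 2 lowered the log2 fold changes of 4 called members by more than 1.5 times, to 0.38 for Uqcrc2, 0.42 for Uqcr11, 0.44 for Atp5g3 and 0.39 for Atp5o. Without control 3 none was lost and 34 members were called higher. The median log2 fold change was 0.49 without control 2 and 0.91 without control 3.

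The partner genes of the same machinery gave a mixed picture. Of 37 nuclear subunits of complex I, 19 were called higher and 2 lower, or 51.4% and 5.41%, against 22.7% and 24.2% of all genes tested. Their median log2 fold change was 0.57. Ndufb4, an accessory subunit, was highest at 1.55 ± 0.27 (adjusted p = 0.00343). Ndufv1 and Ndufs1, which hold the flavin and iron-sulfur centres that take electrons from NADH, were the 2 called lower, at -0.74 ± 0.16 (adjusted p = 0.00618) and -0.50 ± 0.15 (adjusted p = 0.0222). With the offset 12 complex I genes were higher and 2 lower, or 32.4% and 5.41%, against 16.7% and 18.1% of all genes. Those 2 were Ndufv1 at -0.47 (adjusted p = 0.0245) and Ndufa2 at -0.42 (adjusted p = 0.022). Ndufs1 did not pass there, at -0.36 (adjusted p = 0.0707), and Ndufa2 was at 0.32 (adjusted p = 0.211) without offsets. Of 4 electron carriers 1 was called higher and 1 lower without offsets, or 25% each, near the 22.7% and 24.2% of all genes. With the offset none was called higher and 1 lower. Cytochrome c itself, Cycs, rose from 161, 126 and 223 CPM to 329, 323 and 253 CPM, by 0.83 ± 0.22 (adjusted p = 0.0147). It was not called with the offset, at 0.15 ± 0.16 (adjusted p = 0.471). Etfdh, which passes electrons from fat oxidation to ubiquinone, fell without offsets at -0.44 ± 0.13 (adjusted p = 0.024).

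The abundant mitochondrial DNA-encoded subunits of complexes III and IV did not pass the test without offsets. mt-Cytb, the heart of complex III, was at 10114, 12493 and 10978 CPM in the controls and 11459, 11169 and 10429 CPM in the Pkd1 KO kidneys, with a change of -0.0229 ± 0.18 (adjusted p = 0.928). mt-Co1, the catalytic subunit of complex IV, was at 19146, 18673 and 21354 CPM and 26364, 26085 and 24732 CPM, higher without overlap but not past the test at 0.38 ± 0.19 (adjusted p = 0.119). With the offset both were called lower, at -1.02 ± 0.21 (adjusted p = 0.0069) and -0.56 ± 0.18 (adjusted p = 0.0382). The offset lowered the value of every tested subunit encoded by mitochondrial DNA, such as mt-Nd1 from 0.13 to -0.87. GC content was 39.1% in mt-Cytb and 39.9% in mt-Co1, against a median of 49.4% over all genes tested. The part of GC content in these shifts was not tested. mt-Co2, mt-Co3 and mt-Atp6 were called higher but had mean levels of at most 6.58 CPM in either group, far below mt-Co1, and reads mapping to several places, which these counts leave out, were 9.00% to 10.6% in the controls and 12.2% to 13.4% in the Pkd1 KO libraries. Of 6 tested complex I subunits encoded there, 2 were called lower, mt-Nd5 at -1.11 ± 0.22 (adjusted p = 0.00475) and mt-Nd6 at -0.94 ± 0.22 (adjusted p = 0.00923), and with the offset 5. Among all genes tested 24.2% were called lower without offsets and 18.1% with the offset. All genes of mitochondrial DNA together held 6.01% to 6.80% of gene counts in the controls and 6.34% to 6.68% in the Pkd1 KO libraries.

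Assembly factors, which insert cofactors and join subunits, rose for complex II in 3 of 4 genes and for complex V in 3 of 5. Sdhaf3 was at 1.03 ± 0.21 (adjusted p = 0.00532), Sdhaf4 at 0.99 ± 0.24 (adjusted p = 0.0106), Tmem242 at 1.07 ± 0.23 (adjusted p = 0.00616) and Fmc1 at 1.07 ± 0.24 (adjusted p = 0.0081). For complex III 1 of 6, or 16.7%, rose, not above the 22.7% of all genes tested, and it was Uqcc2 at 1.24 ± 0.28 (adjusted p = 0.00765). For complex IV 9 of 21 rose and 2 fell, with Pet100 at 1.33 ± 0.21 (adjusted p = 0.0028), Coa4 at 1.23 ± 0.29 (adjusted p = 0.00951), Lrpprc, which stabilizes mitochondrial messenger RNA, at -0.79 ± 0.20 (adjusted p = 0.0113) and the heme farnesyltransferase Cox10 at -0.71 ± 0.16 (adjusted p = 0.00838). With the offset the counts were 2 higher of 4 for complex II, 1 higher and 2 lower of 6 for complex III, 6 higher and 9 lower of 21 for complex IV and 1 higher and 1 lower of 5 for complex V. Over all genes tested, 22.7% were called higher and 24.2% lower without offsets, and 16.7% and 18.1% with the offset.

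Among 12 regulators of mitochondrial gene expression, 2 rose and 6 fell in each fit, or 16.7% and 50%. Over all genes these shares were 22.7% and 24.2% without offsets, and 16.7% and 18.1% with the offset. Ppargc1b, Polg and Tfam were called only without offsets, and Gabpa, Tfb2m and Nrf1 only with the offset. Gabpa was called lower there, at -0.63 (adjusted p = 0.00957), against -0.22 (adjusted p = 0.228) without offsets. Ppargc1b and Ppargc1a, coactivators that drive mitochondrial biogenesis, fell at -1.60 ± 0.48 (adjusted p = 0.0245) and -0.48 ± 0.16 (adjusted p = 0.036), and Polrmt, the mitochondrial RNA polymerase, fell at -1.34 ± 0.18 (adjusted p = 0.00234). Gabpb1, the partner of GABPA, rose at 0.59 ± 0.15 (adjusted p = 0.0127) and Tfam, which packs mitochondrial DNA, rose at 0.46 ± 0.15 (adjusted p = 0.0296). Nrf1 itself was at 16.8, 19.9 and 17.9 CPM and 19.5, 19.6 and 20.0 CPM and did not pass without offsets, at 0.12 ± 0.14 (adjusted p = 0.505). Of 15 genes of the mitochondrial envelope and of protein import, 4 rose and 3 fell, or 26.7% and 20.0%, near the 22.7% and 24.2% of all genes, and with the offset 2 were called higher and 1 lower. Without offsets Tomm20 was at 0.91 ± 0.14 (adjusted p = 0.00267), Timm23 at 0.75 ± 0.22 (adjusted p = 0.0225), Tomm40 at -0.74 ± 0.15 (adjusted p = 0.00566) and Timm44 at -0.59 ± 0.13 (adjusted p = 0.00829).

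Cell type markers moved with genotype too, and the counts here are from the fit without offsets unless the offset fit is named. Over all genes tested, 22.7% were called higher and 24.2% lower without offsets, and 16.7% and 18.1% in the offset fit. Several lists lay near these shares in 1 direction. Examples are higher intercalated cell markers at 20%, higher fibroblast and smooth muscle markers at 25%, and lower podocyte markers in the offset fit at 20%. In whole kidney, fewer cells of a type and less RNA per cell cannot be told apart. Of 12 proximal tubule markers 8 fell and 2 rose, yet their summed CPM was higher in the Pkd1 KO libraries, at 47772 to 56300.4 against 32898 to 40085. Kap, the kidney androgen-regulated protein and the most abundant of them, went from 18379, 13976 and 26581 CPM to 42807, 47517 and 39679 CPM. Without Kap, the sum of the other markers was lower in every Pkd1 KO library than in every control. Summed CPM of 7 thick ascending limb markers was 4646 to 6067 in the controls and 2493 to 2938 in the Pkd1 KO libraries, with 4 lower and 1 higher. Of 4 distal convoluted tubule markers 3 fell, of 4 tested principal cell markers 3, of 5 intercalated cell markers 2 with 1 higher, of 6 endothelial markers 5 with 1 higher and of 5 podocyte markers 4. Of 8 macrophage markers 5 rose and 1 fell, with summed CPM of 116 to 154 against 208 to 334, and of 6 T and B cell markers 2 rose. Of 8 fibroblast and smooth muscle markers 2 rose and 4 fell, and the only tested testis marker of 5, Ddx4, rose at 1.74 ± 0.57 (adjusted p = 0.0338), with 3 of the 5 at 0 in every library. In the offset fit the podocyte count fell to 1 lower, the endothelial count to 3 lower and none higher, and the testis count to 0, while of the fibroblast and smooth muscle markers 3 were higher and 1 lower. Proximal tubule markers were 9 lower and none higher in that fit, thick ascending limb markers 5 lower and 1 higher, distal convoluted tubule markers 4 lower, principal cell markers 2 lower, intercalated cell markers 3 lower, macrophage markers 4 higher and 1 lower, and T and B cell markers 2 higher. The part of these cell types in the members' changes was not tested.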

How the data were processed

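Raw read counts per gene from 6 libraries were used as the authors deposited them, 7 tables in all, since control 1 had 2 runs, which were summed. STAR 2.6.1e, cutadapt 4.0, FastQC 0.11.8 and the build GRCm39 are named in the submitters' processing notes, and the gene annotation is not given in the sources used. Reads were counted without regard to strand, because the first strand column held 49.1% to 50.0% of stranded reads. Reads in overlapping genes are therefore not counted even where the genes lie on opposite strands. Reads in several places are not counted either. The 4 lines per table that name no gene held 22.9% to 26.3% of reads and were left out.

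Groups came from sample titles. The labels do not say that each kidney came from another mouse, so p-values measure the spread between these samples. Groups were compared by the quasi-likelihood test of edgeR 4.0.16 in R 4.3.3 with filterByExpr, TMM scaling and Benjamini-Hochberg adjustment at 0.05 over all genes tested, 3 against 3. The SE is the absolute log2 fold change over the square root of F. The second fit took its offset from a robust loess surface (span 0.3) of log2 CPM (prior count 2), relative to the mean over libraries, on GC content and exon union length, for 97.3% of tested genes. Such an offset also removes any true change shared by short or long genes. RPKM used the length of the principal transcript.

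Symbols, lengths and GC content came from GENCODE M21 (GRCm38), joined by identifier, with no coordinates printed except those of the RefSeq promoters. Some members have other names, such as Atp5pb for Atp5f1, Atp5md for Usmg5, Atp5if1 for Atpif1 and Dmac2l for Atp5s. In each complex the text names called members with the largest change (up to 4 per direction) and the most abundant per length. It also names all members of complexes II and III, isoform pairs, c-ring genes and associated factors. In other lists it names up to 2 called per direction. Added after their values were seen were mt-Cytb, mt-Co1, mt-Nd1, Ndufs1, Ndufa2, Ppargc1a, Nrf1, Gabpa, Kap, Ucp1 and Cidea. Members and lists were chosen with earlier results of these data known. Alternatives were other scalings and filters, an offset on the principal transcript (added after seeing the data), DESeq2 1.42.0, both strand columns, 1 run of control 1, no mtDNA-encoded genes, a replicate block and leaving out each library. The script was tested on simulated data.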

Additional observations from a re-analysis of the deposited data

How the results depend on the processing

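Low counts limit Cox8b, Cox4i2 and Cox6a2, and reads shared with overlapping genes limit Atp5l, Atpif1 and Atp5o. The other filters on low counts, 1 run of control 1 and leaving out mtDNA-encoded genes left 31 members called higher and 2 or 3 lower. RLE size factors, DESeq2 and the summed strand columns gave 29, 29 and 30 higher. Upper-quartile scaling gave 1 lower. With the offset 13 members were higher (also 13 with a non-robust loess, chosen after seeing the data) and with an offset on principal transcripts, also chosen then, 7 were higher and 7 lower. The medians of complexes IV and V and of all members were then 0.25, 0.32 and 0.29 with the offset, 0.24, 0.30 and 0.29 with the non-robust loess, and -0.00354, 0.13 and 0.10 on principal transcripts, where complex III was at 0.11. The offset fits held 17785 genes against 18273 without offsets, but every tested member was in both. The cause of these shifts was not tested. All genes called higher fell to 2666 with the non-robust loess. Leaving out 1 library gave 9 to 34 members higher and 1 to 5 lower, and 2340 to 4877 genes higher and 2731 to 5441 lower. The medians then ranged from 0.017 to 0.34 in complex II, 0.42 to 0.83 in III, 0.53 to 1.05 in IV and 0.50 to 0.88 in V. Kidneys with the same number did not deviate together (correlations 0.0383, -0.0843 and -0.0291), so the numbers were not taken as pairs. A replicate block gave 30 members higher and 1 lower, with 3581 and 3816 genes higher and lower. The block with the offset gave 14 and 3, with 2674 and 2824 genes, and medians of 0.26 in complex IV and 0.34 in complex V. The log2 ratio of Cox4i2 to Cox4i1 moved from -0.75 to -1.19 with the offset, and those of Cox6a2, Atp5g1, Atp5g2 and Atp5g3 changed sign, to -0.071, 0.057, 0.11 and -0.017; the cause was not tested. Log2 fold changes of single members that changed sign were, with the offset, Sdhc -0.13, Uqcrfs1 -0.34, Uqcrb -0.10, Cox4i2 -0.19, Cox6a2 -0.13, Cox7c -0.19, Cox8a -0.40, Atp5d 0.00838 and Atp5s -0.48. With the non-robust loess they were Sdhc -0.17, Uqcrfs1 -0.36, Uqcrc2 -0.0166, Uqcrb -0.0596, Cox4i2 -0.16, Cox6a2 -0.13, Cox7c -0.18, Cox8a -0.35 and Atp5s -0.49. With the offset on principal transcripts they were Uqcrfs1 -0.24, Uqcrb -0.20, Cox4i2 -0.19, Cox6a1 -0.24, Cox6a2 -0.13, Cox6b2 -0.0234, Cox6c -0.0439, Cox7c -0.15, Cox8a -0.46, Atp5g1 -0.0926, Atp5g2 -0.52, Atp5g3 -0.0509, Atp5k -0.0149, Atp5l -0.23 and Atp5s -0.56. With the block and the offset they were Sdhc -0.13, Uqcrfs1 -0.33, Uqcrb -0.0949, Cox4i2 -0.19, Cox6a2 -0.0179, Cox7c -0.17, Cox8a -0.39, Atp5d 0.0134 and Atp5s -0.48. With RLE size factors they were Sdhc -0.00584 and Dmac2 -0.00329, with DESeq2 Sdhc -0.017, Cox8a -0.0105 and Dmac2 -0.0142, and with the summed strand columns Cox5a 0.11. Leaving out 1 library gave -0.0019 to 0.25 for Atp5g2, -0.035 to 0.38 for Cox6a1, -0.20 to 0.18 for Cox8a, -0.058 to 0.24 for Cyc1, -0.073 to 0.034 for Dmac2 and -0.17 to 0.11 for Sdhc. The cause of these sign changes was not tested.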

Other observations

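Many members share a start region with a gene on the opposite strand. Within 1000 bases of their starts 15 tested members had 16 such protein-coding neighbours, of which 15 were tested, 5 were called higher and 3 lower by edgeR without offsets, against 22.7% and 24.2% of all genes. Sdhd and Timm8b, which encodes an import chaperone, start 98 bases apart and both rose, by 0.97 and by 1.37 ± 0.29 (SE; edgeR adjusted p = 0.00615). Sdha and Ccdc127 start 29 bases apart and moved in opposite directions, by -1.06 and by 0.54 ± 0.17 (adjusted p = 0.0304).

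Usmg5 and Pdcd11, a ribosome biogenesis factor, start 121 bases apart and were at 1.69 and -1.34 ± 0.24 (edgeR adjusted p = 0.0036). Uqcrh and Lrrc41 start 198 bases apart and were at 1.16 and -0.87 ± 0.18 (adjusted p = 0.00575). Atp5a1 and Haus1, an augmin subunit of the mitotic spindle, start 157 bases apart and were at -0.53 and 1.01 ± 0.20 (adjusted p = 0.00487). In the offset fit Timm8b, Ccdc127 and Haus1 stayed higher and Lrrc41 and Pdcd11 stayed lower, at 0.56, 0.78, 0.99, -0.51 and -0.44. Cox4i1 starts 351 bases from Emc8, which was at 0.18 ± 0.12 (adjusted p = 0.255) without offsets and 0.59 (adjusted p = 0.00812) with the offset. These pairs were picked after their values were seen, and counts that ignore strand cannot separate reads where paired genes overlap.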
